A study of Mus musculus with 12 samples.

Results

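Transcripts of the neurotrophins and their receptors were followed in the cortex of aged E4FAD mice through 6 genes, Bdnf, Ntf3, Ntrk2, Ntrk3, Ngfr and Sort1. They were chosen by gene symbol, read from the GRCm38 annotation for each Ensembl identifier, and not by their values. They are 6 of the 50563 genes in the count table, and all 6 passed the filter on low counts and were tested. RNA-Seq of the brain cortex was measured in 12 E4FAD mice, with 1 library per mouse. All 12 mice carried the genotype APOE4+/+, 5FAD-/+, in which human APOE4 replaces the mouse gene and familial Alzheimer's disease transgenes drive amyloid deposition, so mice without these alleles were not compared here. The 7 CTRL mice, 2 of them 12 months old and 5 of them 14 months old, were given vehicle by oral gavage. The 5 DPAn-6 mice, 2 of them 12 months old and 3 of them 14 months old, were given 700 mg/kg of docosapentaenoic acid (DPAn-6), an omega-6 fatty acid, by daily oral gavage for 3 weeks. Antioxidants were given to both groups with the gavage. Both groups held females and males, and the sex of single mice is not given by the labels.

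Neurotrophins are secreted growth factors that keep neurons alive, shape dendrites and adjust synapses. Each is made as a proneurotrophin, which is cut by proteases to the mature form. Mature BDNF, the product of Bdnf, acts mainly through the tyrosine kinase TrkB (Ntrk2), and neurotrophin-3 (Ntf3) mainly through TrkC (Ntrk3). The uncut forms bind p75NTR (Ngfr) together with sortilin (Sort1), a pair known for death signals and synapse weakening, and sortilin also sorts BDNF inside the cell. In the cortex Bdnf is made mostly by excitatory neurons and follows neuronal activity. TrkB is made by neurons as a full-length kinase and by astrocytes as a truncated form without the kinase, and counts per gene cannot separate these forms.

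Bdnf is transcribed from several starts, each with its own first exon, and the counts per gene add them together. RefSeq lists 7 starts of Bdnf on GRCm38.p6, 2 of Ntf3, and 1 each of Ngfr and Ntrk2. The 250 bases before each of these 11 starts were searched on both strands for CGTCA, the core of the cAMP response element, the full element TGACGTCA and the E-box CACGTG, sites of the activity-dependent factor CREB and, for the E-box, of basic helix-loop-helix factors. The core was in 1 of the 7 Bdnf windows, with its first base at −35 from the start, and in 17.8% of 32851 mouse windows of this length. The E-box was in 1 of the 2 Ntf3 windows, at −231, and in 6.02% of all windows. The full element, which includes the core and is in 1.55% of all windows, was in none of the 11. These matches describe letters only, and no binding was measured. The Bdnf window with the core is shown beside the Bdnf window nearest to the end of the gene, which has no match, and beside the Ntf3 window with the E-box, with matches in capitals and each sequence 5′ to 3′ on the strand of its gene.
Bdnf, chr2:109692186-109692435, plus strand: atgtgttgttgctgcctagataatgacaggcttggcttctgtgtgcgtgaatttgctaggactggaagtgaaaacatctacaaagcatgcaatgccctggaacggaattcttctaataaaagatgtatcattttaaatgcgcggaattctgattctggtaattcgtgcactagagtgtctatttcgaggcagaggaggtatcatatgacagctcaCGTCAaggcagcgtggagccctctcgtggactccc
Bdnf, chr2:109722671-109722920, plus strand: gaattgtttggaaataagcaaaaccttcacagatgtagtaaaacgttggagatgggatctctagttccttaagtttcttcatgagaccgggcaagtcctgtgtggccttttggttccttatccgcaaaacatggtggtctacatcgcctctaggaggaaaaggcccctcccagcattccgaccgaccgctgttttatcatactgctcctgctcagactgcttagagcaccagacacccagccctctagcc
Ntf3, chr6:126166745-126166994, minus strand: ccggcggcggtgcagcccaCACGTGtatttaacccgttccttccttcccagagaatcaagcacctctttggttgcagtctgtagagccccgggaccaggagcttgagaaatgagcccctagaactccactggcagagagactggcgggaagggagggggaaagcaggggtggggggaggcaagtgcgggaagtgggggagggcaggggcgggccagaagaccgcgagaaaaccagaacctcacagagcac

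Each CTRL mouse had 15339098 to 19500154 counts on genes, with a median of 17449553, and each DPAn-6 mouse 15208803 to 26520251, with a median of 18400132. Values of single mice are in log2 CPM, for which 0.5 was added to each count, the count was scaled to a common total on genes and its log2 was taken. Fold changes are edgeR estimates of DPAn-6 against CTRL on the log2 scale, and adjusted p-values come from its quasi-likelihood test over all 15688 genes tested. The labels do not say whether mice shared a litter or cage, so the p-values measure the spread between these mice. CTRL replicate 3 stood apart from the other libraries. Its mean correlation with them over genes was 0.963, against 0.980 to 0.986 for the others, and its deviations from the mean of all libraries followed the GC content of genes (r = −0.572 across genes). Markers of excitatory cortical neurons, which check the labelled tissue, summed to between 2105 and 2729 CPM in all 12 mice. Markers of the choroid plexus, which is not part of the cortex, summed to 12.9 to 1666 CPM in CTRL, with the highest sums in CTRL replicates 2, 5 and 3, and to 7.51 to 23.3 CPM in DPAn-6. In tissue of mixed cells, fewer cells of a type and less RNA per cell cannot be told apart.

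Of the 6 genes, Bdnf alone passed an adjusted p of 0.05, and it was higher in DPAn-6 mice. Of all genes tested 1.55% passed, made up of 0.408% that were higher and 1.14% that were lower. Bdnf rose by 1.47-fold. The other ligand, the 2 Trk receptors, p75NTR and sortilin had fold changes between −0.23 and −0.01 on the log2 scale, none of which passed. The 95% intervals bound these differences most closely for Sort1 (−0.12 to 0.10), and least closely for Ntf3 (−0.67 to 0.21) and Ngfr (−0.54 to 0.28), the 2 genes with the fewest counts. A p that misses the threshold does not show that the groups are alike.

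**Figure D1:**
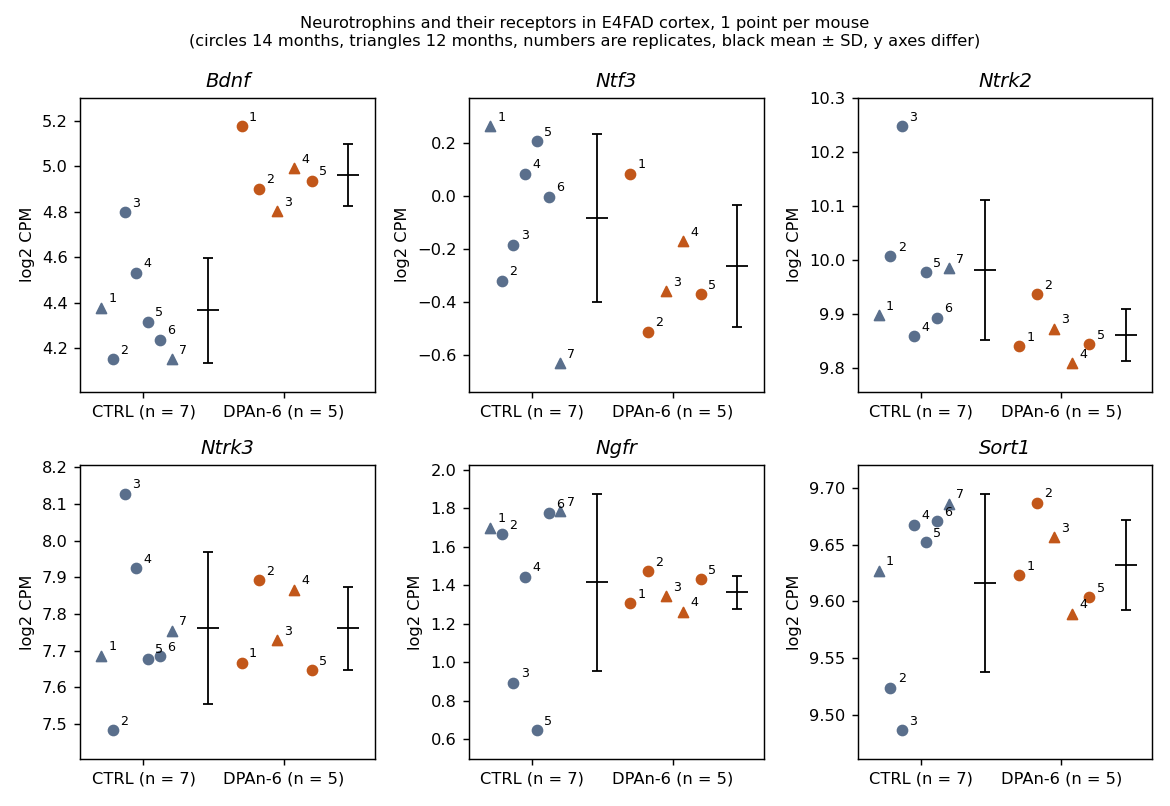
Log2 CPM (y axis, which differs between panels) of each of the 6 genes in every mouse by group (x axis), with 7 CTRL mice in blue and 5 DPAn-6 mice in orange, circles for 14 months, triangles for 12 months, replicate numbers beside the points, and the mean ± SD in black. The 5 DPAn-6 mice lie above every CTRL mouse for Bdnf, with CTRL replicate 3 at 4.80 and DPAn-6 replicate 3 at 4.80 next to each other, and the groups overlap for the other 5 genes.

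Bdnf (ENSMUSG00000048482) lies on chromosome 2 from 109674700 to 109727007 on the plus strand of GRCm38, and 277 to 812 reads per mouse were counted on it. In CTRL mice its lowest value was 4.15, its median 4.32 and its highest 4.80 log2 CPM. In DPAn-6 mice replicates 1 to 5 had 5.18, 4.90, 4.80, 4.99 and 4.94 log2 CPM. All 5 treated mice lay above every CTRL mouse, as was so for 1.73% of all genes tested, but the gap between CTRL replicate 3 and DPAn-6 replicate 3 was only 0.0067. The means were 4.37 ± 0.23 (SD, n = 7) and 4.96 ± 0.14 (SD, n = 5) log2 CPM. On the log2 scale edgeR estimated a change of 0.56 (standard error 0.12, 95% interval 0.31 to 0.81, adjusted p = 0.0276). Over all 792 splits of the mice into 7 and 5, the exact permutation test, which was two-sided here and throughout, gave p = 0.00253, where the smallest possible is 0.00126. By fold, Bdnf was the 26th of the 64 genes called higher, and by p it was the 128th of all genes tested.

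The rise of Bdnf was present at both ages. At 12 months the difference of means was 0.63 log2 CPM, between 2 CTRL and 2 DPAn-6 mice, where an exact permutation test cannot go below 0.333. At 14 months it was 0.60, between 5 CTRL and 3 DPAn-6 mice (two-sided exact permutation test, p = 0.0357). Its direction was the same in every alternative run, from 0.50 to 0.65 on the log2 scale. The adjusted p, which ranged from 0.000405 to 0.330 over the alternatives, did not always stay below 0.05. It was 0.330 with Ttr, the main choroid plexus transcript, as covariate (log2 fold change 0.58, unadjusted p = 0.0035), and 0.322 in the 14-month mice only (0.56, unadjusted p = 0.00572). With each mouse left out in turn, it stayed below 0.05 in 3 of 12 fits, those without CTRL replicate 3, 4 or 7, and reached 0.0909 without DPAn-6 replicate 1. Without the 3 CTRL libraries highest in choroid plexus markers, an alternative chosen after the data were seen, Bdnf was at 0.62 on the log2 scale and its adjusted p was 0.00214. With library totals scaled by TMM factors, CTRL replicate 3, at 4.86 log2 CPM, lay above DPAn-6 replicate 3, at 4.80, and 4 of the 5 treated mice lay above every CTRL mouse. An antisense gene that shares exon sequence with Bdnf, Gm45346, had at most 10 counts in any mouse. The strand setting of the counting is not given, so its reads cannot be told apart from those of Bdnf in the shared sequence.

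**Figure D2:**
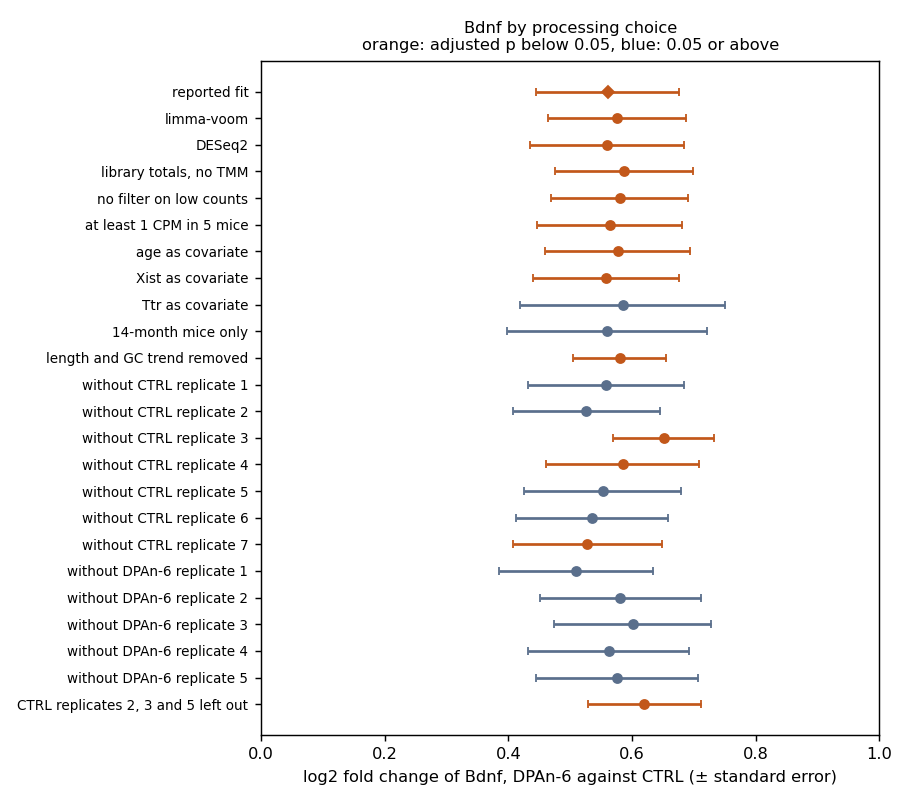
Log2 fold change of Bdnf with its standard error (x axis) by processing choice (y axis), with the reported fit as a diamond at the top, orange where the adjusted p was below 0.05 and blue where it was not. Fits with the replicate number as a block are not drawn. The estimates stay between 0.51 and 0.65 in the settings drawn, while the adjusted p crosses 0.05 in both directions.

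Ntf3 (ENSMUSG00000049107, chromosome 6, 126101412 to 126166910, minus strand) encodes neurotrophin-3 and was close to the limit of what these libraries count, with 11 to 22 reads per mouse. Its values in CTRL had a lowest of −0.63, a median of 0.00 and a highest of 0.26 log2 CPM. The DPAn-6 replicates 1 to 5 had 0.08, −0.51, −0.36, −0.17 and −0.37 log2 CPM. The groups overlapped, with 4 of 5 treated mice below the CTRL mean. The means were −0.08 ± 0.32 (SD, n = 7) and −0.27 ± 0.23 (SD, n = 5) log2 CPM, and edgeR's log2 fold change was −0.23 (standard error 0.21, edgeR adjusted p = 0.682). The exact permutation test gave p = 0.303.

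Among the receptors, Ntrk2 (ENSMUSG00000055254, chromosome 13, 58806569 to 59133970, plus strand) was the best counted, with 13640 to 24379 reads per mouse. Its lowest, median and highest values in CTRL were 9.86, 9.98 and 10.25 log2 CPM. The DPAn-6 replicates 1 to 5 had 9.84, 9.94, 9.87, 9.81 and 9.84 log2 CPM. All 5 treated mice lay below the CTRL mean and 3 of them below every CTRL mouse, while CTRL replicate 3 was far above the rest. The means were 9.98 ± 0.13 (SD, n = 7) and 9.86 ± 0.05 (SD, n = 5) log2 CPM. EdgeR's log2 estimate for it was −0.15 (standard error 0.07, 95% interval −0.31 to 0.00, adjusted p = 0.360), and by the exact permutation test p was 0.0505. On TMM-scaled values the exact p was 0.0341. Without CTRL replicate 3 the log2 fold change was −0.09 (edgeR adjusted p = 0.216) and the exact p was 0.0541.

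Astrocytes also make Ntrk2. Of 8 astrocyte markers tested 7 had a log2 fold change below 0 (median −0.15), with Gfap at 0.09, and 0 passed an adjusted p of 0.05 by edgeR, limma-voom or DESeq2. By edgeR 2 of the 8, both below 0, passed an unadjusted p of 0.05, as 14.5% of all genes did in either direction and 9.02% below 0. Their summed level was 6359 to 10482 CPM in CTRL, highest in replicate 3, and 5615 to 7196 CPM in DPAn-6. Their part in the difference of Ntrk2 was not tested.

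Ntrk3 (ENSMUSG00000059146, chromosome 7, 78175959 to 78738012, minus strand), which encodes TrkC, had 2792 to 5317 reads per mouse. Its lowest, median and highest CTRL values were 7.48, 7.69 and 8.13 log2 CPM. The DPAn-6 replicates 1 to 5 had 7.67, 7.89, 7.73, 7.87 and 7.65 log2 CPM, all inside the CTRL range. Both means were 7.76, with an SD of 0.21 (n = 7) in CTRL and 0.11 (n = 5) in DPAn-6. EdgeR put its log2 fold change at −0.04 (standard error 0.10, 95% interval −0.26 to 0.18, edgeR adjusted p = 0.915; exact permutation p = 0.986). The direction turned when the trends of each library on length and GC content were removed, to 0.14 (unadjusted p = 0.0240, adjusted p = 0.190).

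Ngfr (ENSMUSG00000000120, chromosome 11, 95568818 to 95587735, minus strand), which encodes p75NTR, had only 28 to 71 reads per mouse. Its lowest, median and highest CTRL values were 0.65, 1.66 and 1.79 log2 CPM. The DPAn-6 replicates 1 to 5 had 1.31, 1.47, 1.34, 1.26 and 1.43 log2 CPM. All treated mice lay below the CTRL median, but CTRL replicates 3 and 5, at 0.89 and 0.65, lay below every treated mouse. The means were 1.42 ± 0.46 (SD, n = 7) and 1.36 ± 0.09 (SD, n = 5) log2 CPM, and the log2 fold change was −0.13 (standard error 0.19, edgeR adjusted p = 0.829; exact permutation p = 0.813). Without CTRL replicates 2, 3 and 5, the 3 libraries highest in choroid plexus markers, it was −0.33 (unadjusted p = 0.0279, adjusted p = 0.213; exact permutation p = 0.0159). That alternative was chosen after the data were seen, and it leaves out the 2 CTRL mice lowest in Ngfr.

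Sort1 (ENSMUSG00000068747, chromosome 3, 108284082 to 108361511, plus strand), which encodes sortilin, varied least of the 6 genes, with 11002 to 20634 reads per mouse. Its lowest, median and highest CTRL values were 9.49, 9.65 and 9.69 log2 CPM. The DPAn-6 replicates 1 to 5 had 9.62, 9.69, 9.66, 9.59 and 9.60 log2 CPM, and the groups overlapped. The means were 9.62 ± 0.08 (SD, n = 7) and 9.63 ± 0.04 (SD, n = 5) log2 CPM. EdgeR estimated a log2 fold change of −0.01 (standard error 0.05, edgeR adjusted p = 0.966; exact permutation p = 0.681), and its sign depended on the scaling. An antisense gene that shares exon sequence with Sort1, Gm12523, had at most 11 counts in any mouse. Without the strand setting, its reads cannot be told apart from those of Sort1 in the shared sequence.

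Set side by side per length of exon sequence, sortilin was the most abundant of the 6 transcripts, and Bdnf was below both Trk receptors. Over all 12 mice the mean level was 104 RPKM for Sort1, 50.9 for Ntrk2, 7.26 for Ntrk3, 4.05 for Bdnf, 0.774 for Ngfr and 0.516 for Ntf3. The ranges of neighbours in this order did not overlap, except for Ngfr and Ntf3, of which Ngfr was the higher in 11 of 12 mice. Ntrk2 and Ntrk3 have long annotated exon sequence, and with the length of the longest transcript in its place Sort1 had 116 and Ntrk2 112 RPKM, with Sort1 the higher in 10 of 12 mice. The mean level of Bdnf was 3.38 ± 0.64 RPKM (SD, n = 7) in CTRL and 4.99 ± 0.48 RPKM (SD, n = 5) in DPAn-6. In both groups it lay below Ntrk3, which had 7.33 ± 1.19 RPKM (SD, n = 7) and 7.15 ± 0.59 RPKM (SD, n = 5).

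A dependence of the treatment difference on age was not detectable for any of the 6 genes with this number of mice. The interaction of treatment with age had unadjusted edgeR p-values between 0.258 (Ngfr) and 0.835 (Ntf3), and 0 of the 6 passed at 0.05 with or without adjustment, by edgeR or limma-voom. Over all genes 0.00637% passed the adjusted threshold and 4.26% the unadjusted one. For Ngfr the difference of means was −0.44 log2 CPM at 12 months and 0.12 at 14 months, the age of CTRL replicates 3 and 5.

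Within groups, no relation between 2 of the 6 genes passed adjustment. Of the 15 pairs, 0 passed at 0.05 with adjustment and 1 without it by permutation, after each group was centred on its mean. The lowest p was that of Bdnf with Ntrk3 (Pearson's r = 0.690, permutation p = 0.0339, adjusted p = 0.486, n = 12). Its Spearman's rho was 0.336 (permutation p = 0.313), and r was 0.614 without the 2 mice farthest from the median of Bdnf.

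Genes whose values followed a member most closely between mice, among all genes tested and after centring, are given as a description, with r over 12 mice and, in brackets, r over the 11 mice without CTRL replicate 3. Nearest to Bdnf were Gm13340, at 0.959 (0.904), Eya1, a developmental transcription cofactor, at 0.938 (0.876), and Cbfb, a partner of RUNX factors, at 0.931 (0.818). Nearest to Ntf3 were Jaml at 0.912 (0.919), Zfp383 at 0.868 (0.868) and Cd74, the invariant chain of MHC class II, at 0.847 (0.851). Both Ntf3, with 11 to 22 reads per mouse, and Jaml, with 7 to 15, were counted by few reads. Nearest to Ntrk2 were Ttll5, a polyglutamylase, at 0.978 (0.90), Cdk11b at 0.958 (0.780) and Apobec3 at 0.954 (0.788). Nearest to Ntrk3 were Uba6, a ubiquitin-activating enzyme, at 0.985 (0.968), Il1rap, an interleukin-1 receptor subunit, at 0.982 (0.958), and Zbtb33 at 0.982 (0.961). Nearest to Sort1 were the protocadherin Pcdhac2 at 0.958 (0.963), Mtmr7 at 0.939 (0.914) and the protocadherin Pcdha12 at 0.935 (0.923). Ntrk3 was not particular in its neighbours, since 799 genes had an r of at least 0.9 with it, against 47 for Ntrk2, 23 for Bdnf, 12 for Sort1, 3 for Ngfr and 1 for Ntf3.

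Nearest to Ngfr was Chat, choline acetyltransferase, the enzyme that makes acetylcholine and a marker of cholinergic neurons, at 0.956 (0.944), followed by Myl6 at 0.919 (0.899) and Gm9625 at 0.914 (0.90). Cholinergic neurons of the basal forebrain are known for high p75NTR. CTRL replicates 1 to 7 had 18, 17, 4, 14, 3, 26 and 21 reads of Chat, and 55, 49, 28, 47, 30, 63 and 61 reads of Ngfr. The mice lowest in Ngfr, CTRL replicates 3 and 5, were also the lowest in Chat, at −1.77 and −2.48 log2 CPM. Over the 7 CTRL mice alone r was 0.995, while over the 5 DPAn-6 mice it was −0.0232. The SD of Ngfr was 0.46 log2 CPM in CTRL but only 0.09 in DPAn-6, and a difference of r between the groups was not tested. Chat was picked by its r over these same mice, so these values are a description only. With CTRL replicates 3 and 5 left out and the groups centred again on the mice that remained, r was 0.495 (n = 10), so the r of 0.956 over all mice rested in part on these 2. Over the 5 other CTRL mice it was 0.928. The 5 DPAn-6 mice had 18, 20, 35, 22 and 41 reads of Chat, and all 5 lay between 1.26 and 1.47 log2 CPM of Ngfr. The 4 markers of basal forebrain cholinergic neurons, of which 3 were tested, summed to 1.64 to 7.20 CPM in CTRL and 3.21 to 6.59 CPM in DPAn-6. Each of the 3 tested had a log2 fold change above 0, with 0 of the 3 at an unadjusted p below 0.05 by edgeR or DESeq2 and 1 by limma-voom. How far these cells or tissue dissected with the cortex take part in the level of Ngfr was not tested.

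**Figure D3:**
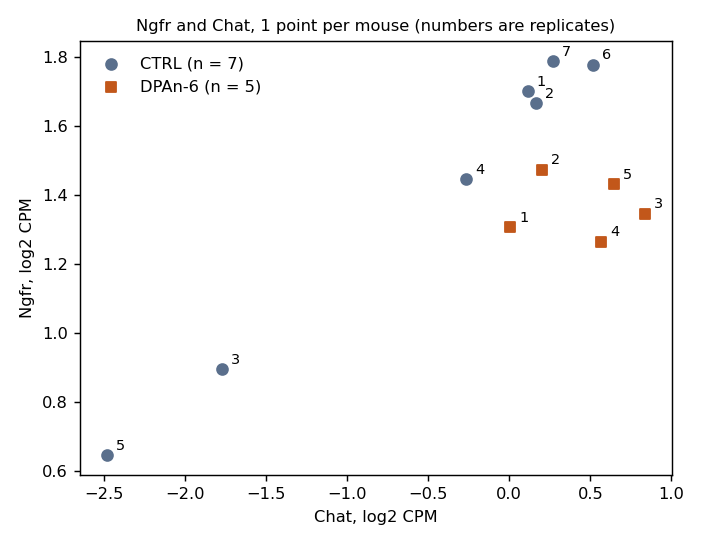
Log2 CPM of Chat (x axis) and of Ngfr (y axis), 1 point per mouse with its replicate number, CTRL as circles and DPAn-6 as squares. CTRL replicates 3 and 5 lie apart at the lower left, at 0.89 and 0.65 log2 CPM of Ngfr, and the 5 DPAn-6 mice lie between 1.26 and 1.47.

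Around the 6 genes, 9 lists of the neurotrophin pathway held 125 genes, of which 116 were tested. Of these 7 passed an adjusted p of 0.05, 6 higher and 1 lower, which is 6.03% against 1.55% of all genes tested, and the median log2 fold change was 0.01, against 0.00 over all genes. The lists were chosen with earlier results of these data known. Vgf and Nptx2, among the 6 higher genes, were chosen by the study on these samples. The share called is therefore not independent evidence. The counts follow list by list.

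Among the other ligands, Ntf5, the gene of neurotrophin-4, had 0 to 8 reads and was not tested. Of the other receptors, Sorcs3, a brain receptor of the sortilin family, rose. It had 5.66 to 5.91 log2 CPM in CTRL and 6.16 to 6.33 in DPAn-6. All treated mice thus lay above every CTRL mouse, as was so for 1.73% of all genes tested. For Sorcs3 edgeR estimated a log2 fold change of 0.40 (standard error 0.06, edgeR adjusted p = 0.00551, exact permutation p = 0.00126, the smallest possible). Its adjusted p was 0.05 or above in 3 of 25 alternatives, up to 0.225. Its family members had log2 fold changes of −0.05 (Sorcs1, adjusted p = 0.850), 0.02 (Sorcs2, adjusted p = 0.949) and 0.05 (Sorl1, adjusted p = 0.858).

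**Figure D4:**
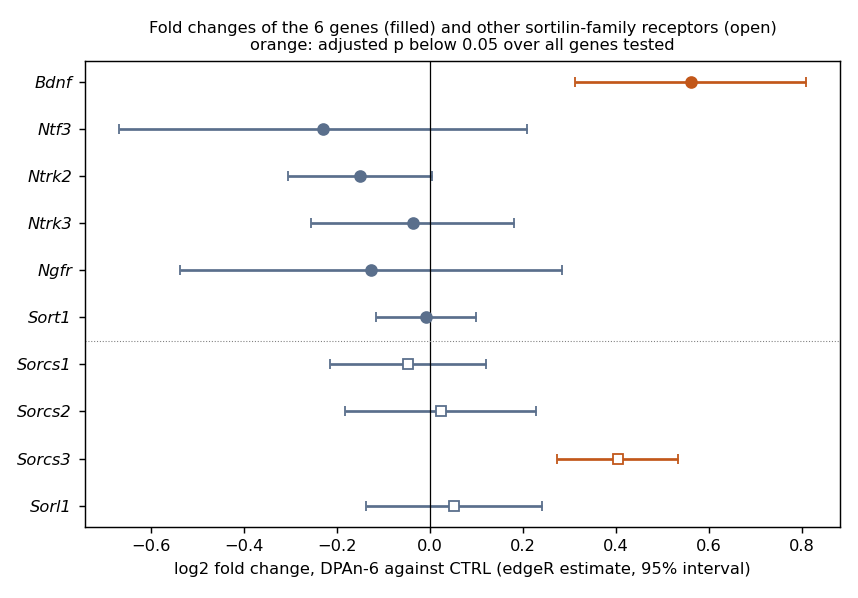
Log2 fold change of DPAn-6 against CTRL with its 95% interval (x axis) for the 6 genes (filled circles) and for 4 other receptors of the sortilin family (open squares), in orange where the adjusted p over all genes was below 0.05. Bdnf at 0.56 and Sorcs3 at 0.40 are the 2 in orange, and the intervals of Ntf3, Ntrk2, Ntrk3, Ngfr and Sort1 include 0.

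Proneurotrophin processing, the proteases that cut the precursors and their inhibitors, had 11 genes tested, 4 with a log2 fold change above 0 and 7 below (median −0.06), and 0 passed by edgeR, limma-voom or DESeq2, while 1 passed an unadjusted p of 0.05 by edgeR. That gene was Pcsk1, a convertase of the secretory pathway, at 0.22 (unadjusted p = 0.0259, adjusted p = 0.261). Partners and adaptors of p75NTR had 13 genes tested, 8 above 0 and 5 below (median 0.02). Lingo1, a coreceptor of p75NTR in the Nogo receptor complex, rose, with 404 to 508 CPM in CTRL and 514 to 635 CPM in DPAn-6 and a log2 fold change of 0.30 (standard error 0.07, edgeR adjusted p = 0.0466). Its adjusted p was 0.05 or above in 19 of 25 alternatives, up to 0.634.

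Adaptors and docking proteins of Trk receptors had 22 genes tested, 8 above 0 and 14 below (median −0.05). Shc3, a neuronal adaptor that couples activated Trk receptors to Ras, fell. It had 5.93 to 6.21 log2 CPM in CTRL and 5.42 to 5.69 in DPAn-6, so all treated mice lay below every CTRL mouse (1.49% of all genes), with a log2 fold change of −0.52 (standard error 0.07, edgeR adjusted p = 0.00302; exact permutation p = 0.00126), and 2 of 25 alternatives lost the call, with an adjusted p of up to 0.193. Downstream kinases had 26 genes tested, 13 above 0 and 13 below (median −0.02), 0 passed by any of the 3 tools and 1 passed an unadjusted p of 0.05, below 0, as 9.02% of all genes did. That gene was Mapk3, the kinase ERK1, at −0.21 (unadjusted p = 0.0202, adjusted p = 0.235). Regulators of Bdnf transcription, such as CREB and calcium channels, had 19 genes tested, 7 above 0 and 12 below (median −0.04), 0 passed by any of the 3 tools and 3 passed an unadjusted p of 0.05, all 3 lower. The lowest p was that of Cacna1c, an L-type calcium channel subunit, at −0.18 (unadjusted p = 0.0103, adjusted p = 0.172). The family of GDNF, another group of neurotrophic factors, had 5 genes tested, 3 above 0 and 2 below (median 0.20). Gfra2, the neurturin receptor, rose, with a log2 fold change of 0.40 (standard error 0.08, edgeR adjusted p = 0.0260), though 11 of 25 alternatives gave an adjusted p of 0.05 or above, up to 0.320.

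Genes that BDNF is known to induce in neurons, many of which also follow neuronal activity, were above 0 in 15 of 15, where 48.7% of all genes tested were above 0. The median log2 fold change was 0.39. Of the 15, 7 passed an unadjusted p of 0.05, all higher, against 14.5% of all genes in either direction and 5.51% higher. The adjusted threshold was passed by 3, all higher, against 1.55% of all genes in either direction and 0.408% higher. Nptx2, a secreted pentraxin of excitatory synapses, rose the most, from 5.08 to 5.76 log2 CPM in CTRL to 5.78 to 6.36 in DPAn-6 (log2 fold change 0.67, standard error 0.12, edgeR adjusted p = 0.0134). Vgf, a precursor of secreted neuropeptides, rose by 0.45 (standard error 0.10, adjusted p = 0.0412), and Nrn1, which encodes the growth factor neuritin, by 0.42 (standard error 0.09, adjusted p = 0.0260). This list was chosen with earlier results of these data known, and Vgf and Nptx2 were chosen by the study on these samples. The directions and calls of the 15 genes are therefore not independent evidence. The adjusted p was 0.05 or above in 3 of 25 alternatives for Nptx2, up to 0.234, in 13 of 25 for Vgf, up to 0.379, and in 10 of 25 for Nrn1, up to 0.424. Among the early genes, none of those named next passed adjustment. Egr4 had a log2 fold change of 0.51 (adjusted p = 0.168) and Egr3 of 0.40 (adjusted p = 0.0954), while Arc had 0.11 (adjusted p = 0.876), with 6.69 to 8.18 log2 CPM in CTRL and 7.45 to 7.91 in DPAn-6. In the 14-month mice only, 13 of the 15 were above 0 and the median was 0.25.

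**Figure D5:**
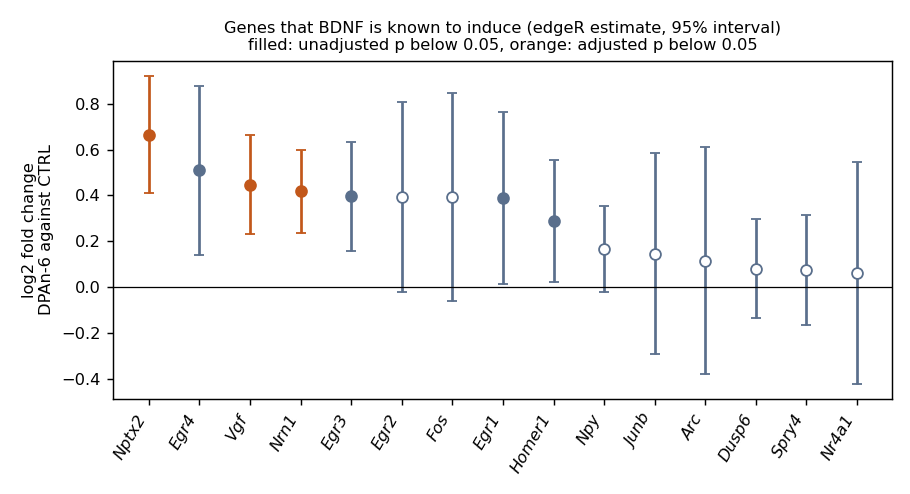
Log2 fold change of DPAn-6 against CTRL with its 95% interval (y axis) for the 15 genes that BDNF is known to induce (x axis, in order of fold change), filled where the unadjusted p was below 0.05 and orange where the adjusted p was below 0.05. All 15 estimates lie above 0, from 0.67 for Nptx2 to 0.06 for Nr4a1, and 8 of the intervals include 0. The list was chosen with earlier results of these data known.

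Markers of other cells are given by their counts, beside 1.14% of all genes called lower, 0.408% called higher and 14.5% at an unadjusted edgeR p below 0.05 (9.02% lower and 5.51% higher). All 6 microglia markers had log2 fold changes below 0 (median −0.48, 2 called by edgeR and 4 by DESeq2). So had 6 of 6 markers of leptomeningeal fibroblasts (−0.68, 3 called by edgeR and 3 by DESeq2) and 7 of 7 of mural cells (−0.20, 1 called by edgeR and 2 by DESeq2). In these lists 5, 4 and 3 had an unadjusted edgeR p below 0.05. Below 0 were also 4 of 4 tested markers of the choroid plexus (−2.76, 0 called by edgeR or limma-voom and 4 by DESeq2, 4 with an unadjusted edgeR p below 0.05). Markers of inhibitory neurons were above 0 in 6 of 6 (median 0.24), of oligodendrocytes in 6 of 7 (0.33) and of the striatum in 6 of 6 (0.35). Of these 0 were called by edgeR and 1, an oligodendrocyte marker, by DESeq2, while 3, 5 and 1 had an unadjusted edgeR p below 0.05. Excitatory neuron markers, for the cells that make most Bdnf, were above 0 in 5 of 7, with a median of 0.01 and summed levels of 2105 to 2729 CPM in CTRL and 2379 to 2548 CPM in DPAn-6. Of the remaining lists, 1 of 4 markers of oligodendrocyte precursors, 2 of 4 of endothelium, 3 of 5 of hippocampus and 4 of 5 of layer 6b were above 0, with 0 called by any of the 3 tools and 1, 1, 1 and 0 at an unadjusted edgeR p below 0.05. The part of these cells in the values of the 6 genes was not tested.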

How the data were processed

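RNA-Seq was measured in 12 cortex libraries. The authors made poly(A)-selected KAPA mRNA libraries, aligned reads with STAR 2.5.3a (the submitters' processing notes) to GRCm38 with Ensembl annotation and deposited the raw counts of each gene. The strand setting of the counting is not given in the sources used here. Symbols and lengths came from GENCODE M21, matched for 50339 of 50563 identifiers. No protein sequences were used here. Promoter sequences are from RefSeq on GRCm38.p6.

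The groups were compared by edgeR 4.0.16 (R 4.3.3; TMM, filterByExpr by group, quasi-likelihood test, no covariate, Benjamini-Hochberg over all genes tested), and for single genes by an exact permutation test, two-sided, on the difference of log2 CPM means. Pairs used 100000 permutations within groups (numpy 2.4.6, Python 3.11.15). RPKM used TMM-scaled totals and the union of exons. Standard errors are the estimate divided by the root of its F statistic. The edgeR test was run on simulated counts first. Smallest chi-square per gene between libraries was 5.32, so no pair of libraries agreed within sampling noise.

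The genes, the 9 pathway lists and the 14 marker lists were chosen with earlier results of these data known. Named are the 6 genes, list genes with an adjusted p below 0.05, else the lowest p of a list, other ligands and receptors (some of which are not reported here), and the 3 genes most like each member. Egr3, Egr4, Arc, Nr4a1 and the overlapping genes were named after their values were seen. Alternatives were limma-voom (limma 3.58.1, the authors' method), DESeq2 1.42.0, no TMM, no filter, 1 CPM in 5 mice, a pseudocount of 2, TMM-scaled values, age, Xist or Ttr as covariate, 14-month mice only, length and GC trends removed, the replicate number as a block, each mouse left out, and, after the data were seen, 3 CTRL libraries left out.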

Additional observations from a re-analysis of the deposited data

Results flagged for a closer look

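Ntrk2 in CTRL replicate 3 stood at 10.25 log2 CPM, farther from the other 6 CTRL mice (9.86 to 10.01 log2 CPM) than Dixon's test allows at the 95% level, a limit that chance passes in about 1 of 20 groups. The lowest and highest values of all 6 genes were searched in both groups, and only Ntrk2 in CTRL replicate 3 went beyond the limit. The same mouse was the highest of the 7 CTRL mice in Bdnf (4.80 log2 CPM) and Ntrk3 (8.13 log2 CPM) and the lowest in Sort1 (9.49 log2 CPM), and its astrocyte markers summed to 10482 CPM, the highest of the 12 mice. Its library was also the one that stood apart in correlation and in its trend on GC content, and the part of these in its Ntrk2 value was not tested.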

How the results depend on the processing

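No gene other than Bdnf among the 6 passed an adjusted p of 0.05 in any alternative run. The log2 fold change of Bdnf ended above an adjusted p of 0.05 with the covariate Ttr (0.58), in 14-month mice alone (0.56) and with the replicate number as a block (0.50, adjusted p = 0.160), and ranged from 0.51 to 0.65 with each mouse left out. Same-numbered mice of the 2 groups deviated with r from −0.12 to 0.22, above 0.1 in 1 of 5 pairs, and 1 CTRL mouse matched its own number best. Mice of unlike numbers had r from −0.26 to 0.27. With so few pairs, these values cannot tell whether the replicate numbers pair the mice. Under the block 69 genes and 1 pathway gene were called in place of 243 and 7.

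Values near 0 changed sign. Ntrk3 was at 0.14 with length and GC trends removed and 0.18 with the block added, Ngfr at 0.0402 in the 14-month mice, 0.0642 under the block and 0.00504 with block and trends removed, and Sort1 at 0.0141 without TMM, 0.00834 without a filter, 0.0143 in the 14-month mice, 0.0177 under the block, 0.0434 with trends removed and 0.0719 with both. In log2 CPM Ngfr differed by 0.12 in the 14-month mice and −0.31 without CTRL replicates 2, 3 and 5 (exact permutation p = 0.0159), Sort1 by −0.00789 on TMM-scaled values and −0.0307 without those 3 mice, and Ntrk2 by −0.14 on TMM-scaled values (exact permutation p = 0.0341). Sorcs1 was at 0.00057 with trends removed and 0.0524 with the block added, Sorcs2 at −0.0343 without the 3 CTRL mice, and Sorl1 at −0.12 with Ttr as covariate and −0.0446 without the 3 CTRL mice.

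With each mouse left out, log2 fold changes ranged from −0.0802 to 0.0407 for Ntrk3, −0.0226 to 0.011 for Sort1, −0.0435 to 0.0524 for Sorcs2 and −0.000568 to 0.105 for Sorl1. Differences of log2 CPM ranged from −0.181 to 0.00931 for Ngfr, −0.141 to −0.076 for Ntrk2, −0.0488 to 0.0587 for Ntrk3 and −0.00587 to 0.0274 for Sort1, and the age interaction from −0.202 to 0.0442 for Bdnf, −0.629 to 0.304 for Ntf3 and −0.0964 to 0.0218 for Ntrk2.

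Genes called numbered 696 by DESeq2, 17 with Ttr, 9 in the 14-month mice, 508 with trends removed, 541 without the 3 CTRL mice and 64 (without DPAn-6 replicate 3) to 953 (without CTRL replicate 3) with each mouse left out. Pathway genes called were 1 with Ttr, 0 in the 14-month mice by edgeR, 4 with block and trends removed, 12 without the 3 CTRL mice and 2 to 17 with each mouse left out. Levels by the longest transcript were 5.91 RPKM for Bdnf, 112 for Ntrk2, 11.1 for Ntrk3 and 116 for Sort1. The causes of these shifts were not tested, and the 14-month and left-out fits also held fewer mice. Ntf3 could not be tested at 1 CPM in 5 mice, which removes it.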
